A study of Sus scrofa with 6 samples.

Results

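Plasma cells are the antibody-secreting end stage of the B cell line, and a small number of them and of their dividing precursors, plasmablasts, circulate in blood. Genes by which such cells are recognised were read in pig blood. The list held 10 symbols, XBP1, PRDM1, IRF4, MZB1, JCHAIN, IGJ, SDC1, TNFRSF17, CD38 and POU2AF1, and a row of the deposited table was taken where its symbol column equalled a listed symbol. This gave 6 genes of the 11564 in the table: JCHAIN, MZB1, TNFRSF17, SDC1, CD38 and POU2AF1. Rows for XBP1 and PRDM1 carried no symbol and were named from their identifiers with a reference gene table, so they are described beside the 6 and not counted with them. IGJ is an older symbol of JCHAIN, and IRF4 was not analysed here.

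RNA came from peripheral blood mononuclear cells (PBMC, the lymphocytes and monocytes of blood) of 6 Yorkshire pigs at 6 months of age. There were 3 wild type libraries and 3 labelled Leptin-overexpressing (called leptin transgenic here). The leptin transgenic animals descend from fetal fibroblasts transfected with the pig leptin coding sequence and made into pigs by somatic cell nuclear transfer, while the controls were nontransgenic pigs. Whether the 3 leptin transgenic animals came from 1 cell clone is not given in the sources used here. Leptin is the hormone of fat cells that signals energy stores to the brain, and it also acts on immune cells. Each library is 1 FPKM value per gene (sequenced fragments of the gene, scaled for the length of its transcripts and the size of the library).

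LEP, the gene that the transgene carries, went against the labels in 2 libraries. In wild type replicates 1 to 3 its FPKM was 50.0, 0 and 0.118, and in leptin transgenic replicates 1 to 3 it was 0, 18.3 and 39.3. Both replicate 1 libraries thus have an LEP level like that of most libraries of the other label. The labels were kept, and the plasma cell genes, the light chain constants and some lists are also given without both replicate 1 libraries. The lists given so are immunoglobulin genes, B cell markers, transcription factors, survival and homing genes, and endoplasmic reticulum genes pooled. Markers of T cells, NK cells, monocytes, dendritic cells, platelets and red cells and the proliferation genes are given with all libraries only. The summed FPKM of a library ran from 444887.6 to 449652.9 in the wild type libraries and from 467275.8 to 503139.7 in the leptin transgenic ones, without overlap. Read depth is unknown, because FPKM values hold no counts.

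When a B cell becomes a plasma cell, the repressor Blimp-1 (PRDM1) and the factor IRF4 shut down B cell genes, and XBP1 enlarges the endoplasmic reticulum (ER), where antibodies are folded. The joining chain made by JCHAIN links IgM and IgA units into the polymers that are secreted onto mucosal surfaces, and MZB1 is an ER protein that helps assemble immunoglobulin chains. At the cell surface, TNFRSF17 (BCMA) receives the survival signals APRIL and BAFF, SDC1 (CD138) is a heparan sulfate proteoglycan used to sort plasma cells, and CD38 is an enzyme that breaks down NAD. CD38 is also found on T cells, NK cells and monocytes. POU2AF1 (OBF-1) is a coactivator of octamer-binding factors that B cells use as well as plasma cells.

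In these libraries JCHAIN was the most abundant of the 6 genes and SDC1 the least abundant. None of the 6 differed between the labels: limma on log2(FPKM + 1) gave 0 of 6 at an adjusted p under 0.05 and 0 of 6 at an unadjusted p under 0.05. Over all 10735 genes tested, 0.00932% passed the first threshold and 3.18% the second (1.98% higher and 1.19% lower in leptin transgenic libraries). The groups overlapped for each of the 6, while 7.63% of all genes tested had groups without overlap. The fitted log2 fold change (leptin transgenic minus wild type) was above 0 for 2 of the 6 and below 0 for 4, with a median of -0.085. Over all genes 63.1% were above 0 and 36.9% below, with a median of 0.059. With FPKM rescaled to a common library total (TPM) all 6 were below 0 and the share of all genes above 0 was 37.5%. With median-of-ratios scaling all 6 were again below 0, against 50.4% of all genes above. In bulk RNA, fewer cells of a type and less RNA per cell cannot be told apart.

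**Figure D1:**
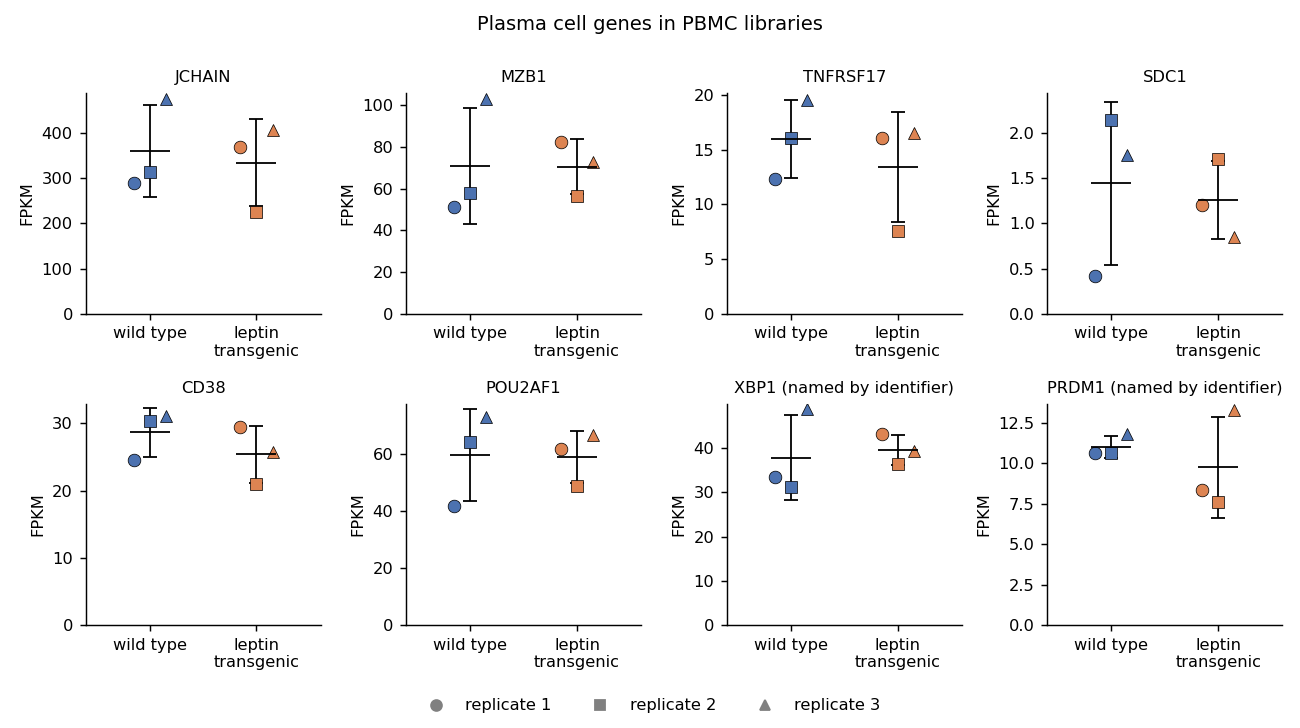
FPKM (vertical axes, starting at 0) of the 6 genes found by symbol and of XBP1 and PRDM1, named by identifier, in each library by label. Points are libraries with the replicate as the marker shape, and bars are the mean and SD of 3. The groups overlap in every panel, and wild type replicate 3 holds the highest value of 5 of the 6 genes found by symbol.

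The secreted product and its ER helper come first. JCHAIN (ENSSSCG00000008939, chromosome 8 from 71347283 to 71358511, as placed by the authors' table, which names no genome build) was at 290.4, 313.6 and 475.9 FPKM in wild type replicates 1 to 3. It was at 369.6, 224.6 and 407.6 FPKM in leptin transgenic replicates 1 to 3. The highest value was thus in a wild type library and the lowest in a leptin transgenic one, but each group had libraries inside the range of the other. The means were 360.0 ± 101.1 and 333.9 ± 96.6 FPKM (SD, n = 3), and 98.2% of the genes in the table had a lower mean. The log2 fold change was -0.12 (SE 0.28, 95% interval -0.75 to 0.52, adjusted p = 0.993 in limma).

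MZB1 (ENSSSCG00000029239, chromosome 2 from 147107911 to 147110247) was at 51.4, 58.1 and 102.8 FPKM in the wild type libraries and at 82.5, 56.3 and 72.7 FPKM in the leptin transgenic ones. All 3 leptin transgenic values lay within the wild type range. The means, 70.7 ± 27.9 and 70.5 ± 13.3 FPKM (SD, n = 3), differed by far less than the spread, with a log2 fold change of 0.045 (SE 0.28, 95% interval -0.59 to 0.68, adjusted p = 0.997).

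Of the surface proteins, TNFRSF17 (ENSSSCG00000007888, chromosome 3 from 32126182 to 32130379) was at 12.3, 16.1 and 19.5 FPKM in wild type libraries and at 16.1, 7.6 and 16.5 FPKM in leptin transgenic ones. Only leptin transgenic replicate 2 fell outside the wild type range, below it. The means were 15.9 ± 3.6 and 13.4 ± 5.01 FPKM, and the log2 fold change of -0.29 (SE 0.30, 95% interval -0.97 to 0.40, adjusted p = 0.993) was the lowest of the 6. It was 0.050 without leptin transgenic replicate 2, when SDC1 was the lowest at -0.19.

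CD38 (ENSSSCG00000008742, chromosome 8 from 10731288 to 10781193) was the steadiest of the 6, with a highest value 1.48 times the lowest. It was at 24.5, 30.4 and 31.1 FPKM in wild type and at 29.4, 21.0 and 25.8 FPKM in leptin transgenic libraries, a log2 fold change of -0.17 (SE 0.18, 95% interval -0.58 to 0.24, adjusted p = 0.993). SDC1 (ENSSSCG00000008601, chromosome 3 from 125988734 to 125994234) was the most variable by ratio, 5.09 times between its extremes, at a level close to the filter of 1 FPKM. Its values were 0.42, 2.14 and 1.76 FPKM in wild type libraries and 1.2, 1.71 and 0.852 FPKM in leptin transgenic ones, so both of its extremes were wild type. The SDC1 log2 fold change was -0.052 (SE 0.30, 95% interval -0.75 to 0.65, adjusted p = 0.997), and only 10.8% of genes had a lower mean.

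POU2AF1 (ENSSSCG00000015016, chromosome 9 from 43861485 to 43866162), the coactivator, was at 41.8, 64.2 and 73.0 FPKM in wild type libraries. In leptin transgenic libraries it was at 61.7, 48.9 and 66.6 FPKM, all within the wild type range. The means of 59.7 ± 16.1 and 59.1 ± 9.14 FPKM gave a log2 fold change of 0.012 (SE 0.23, 95% interval -0.52 to 0.55, adjusted p = 0.998).

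Exact two-sided permutation tests of 3 libraries against 3 cannot go below p = 0.1, and for the 6 genes they gave between 0.4 (CD38) and 1.0 (POU2AF1). The 95% intervals above reach 0.97 downwards (TNFRSF17) and 0.68 upwards (MZB1) on the log2 scale, so changes of that size could have been missed with these libraries. For SDC1, near 1 FPKM, the scale of log2(FPKM + 1) understates changes, so larger ones could have been missed. Its SE was 0.56 on log2(FPKM + 0.1), against 0.30 on log2(FPKM + 1).

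PRDM1 and XBP1, the regulators that carry no symbol in the table, had levels as overlapping as the rest. The row taken for PRDM1 (ENSSSCG00000004369, chromosome 1 from 81577473 to 81601278) was at 10.6, 10.6 and 11.8 FPKM in wild type and at 8.31, 7.6 and 13.3 FPKM in leptin transgenic libraries. Wild type values were close together and leptin transgenic ones lay on both sides of them. The means were 11.0 ± 0.688 and 9.72 ± 3.08 FPKM, with a log2 fold change of -0.19 (SE 0.21, 95% interval -0.67 to 0.29, adjusted p = 0.993). It was -0.13 without both replicate 1 libraries, -0.42 without leptin transgenic replicate 3 and -0.052 without leptin transgenic replicate 2.

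The row taken for XBP1 (ENSSSCG00000030996, chromosome 14 from 49015843 to 49016650) spans 808 bp, and a gene's FPKM rests on the model it was counted on. XBP1 RNA is spliced by the ER stress sensor IRE1, and a value per gene does not separate the spliced form. Its values were 33.5, 31.1 and 48.9 FPKM in wild type libraries and 43.2, 36.4 and 39.3 FPKM in leptin transgenic ones, which lie inside the wild type range. The log2 fold change was 0.089 (SE 0.20, 95% interval -0.36 to 0.54, adjusted p = 0.993), and -0.044 without both replicate 1 libraries.

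**Figure D2:**
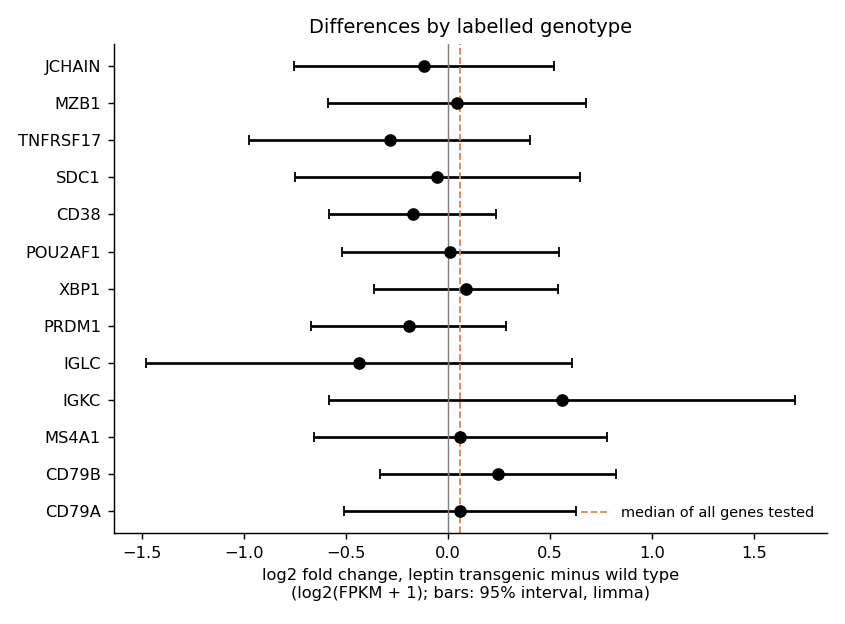
Log2 fold change on log2(FPKM + 1), leptin transgenic minus wild type (horizontal axis), for plasma cell genes, light chain constant genes and B cell markers, with 95% limma intervals. The dashed line is the median of all genes tested, 0.059. Every interval drawn includes 0.

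Without both replicate 1 libraries, 2 libraries were left in each group and all 6 genes had a fitted value below 0, as did 9 of the 10 B cell markers and 56.8% of all genes, whose median was -0.032. The values were -0.35 for JCHAIN, -0.27 for MZB1, -0.61 for TNFRSF17, -0.39 for SDC1, -0.39 for CD38 and -0.26 for POU2AF1. The smallest unadjusted p was 0.092 (CD38), the adjusted p was 0.999 for each of the 6, and 2.32% of all genes passed an unadjusted p under 0.05. Under at least 1 of the alternatives tried, the sign turned for each of the 6 genes except CD38. The alternatives reuse the same libraries, so an unchanged sign is not separate evidence of a direction. With all libraries the limma interval of CD38, -0.581 to 0.235, includes 0. No direction is therefore given for any of the 6.

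Within a library the 6 genes kept nearly 1 order by FPKM, which is per length. In all 6 libraries JCHAIN ranked 1, CD38 ranked 4, TNFRSF17 ranked 5 and SDC1 ranked 6. MZB1 stood above POU2AF1 in 5 libraries and under it in wild type replicate 2. Their means differed by less than the SD of the wild type libraries, but that SD is between libraries and does not measure the order within 1. With 1 library reversed, no order is given for these neighbours. Each other step held in all 6 libraries and was larger than the spread.

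Variation among the libraries crossed the labels. Wild type replicate 3 had the highest value for 5 of the 6 genes and wild type replicate 2 the highest for SDC1. The lowest value was in wild type replicate 1 for MZB1, SDC1 and POU2AF1, and in leptin transgenic replicate 2 for JCHAIN, TNFRSF17 and CD38.

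How far genes shared an order over the libraries was counted over the 15 pairs of libraries. JCHAIN and TNFRSF17 put 14 of the 15 pairs in the same order. JCHAIN did so in 13 with MZB1, in 13 with POU2AF1 and in 12 with CD38, but in only 8 with SDC1. PRDM1 shared 12 and XBP1 11 with JCHAIN. These counts describe 6 libraries that share their scaling with every gene in them, and 23.5% of all genes tested shared 12 or more pairs with JCHAIN, with a median of 9.

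SDC1 shared more pairs with the B cell markers MS4A1, CD79A and CD79B than with JCHAIN. Its count was 13 with MS4A1 (CD20), a surface marker of B cells before the plasma cell stage. It was 12 with CD79A and 11 with CD79B, signalling chains of the B cell receptor. Counts with the other B cell markers of the list are not given here, and the difference was not tested. Of all genes tested, 6.72% shared 12 or more pairs with SDC1, with a median of 8. CD38 shared 13 pairs with TNFRSF17 and 13 with MS4A1, 12 with each of CD79A and JCHAIN and 9 with CD79B, beside 15.7% of all genes at 12 or more and a median of 9. JCHAIN itself shared 10 with MS4A1, 9 with CD79A and 8 with CD79B.

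**Figure D3:**
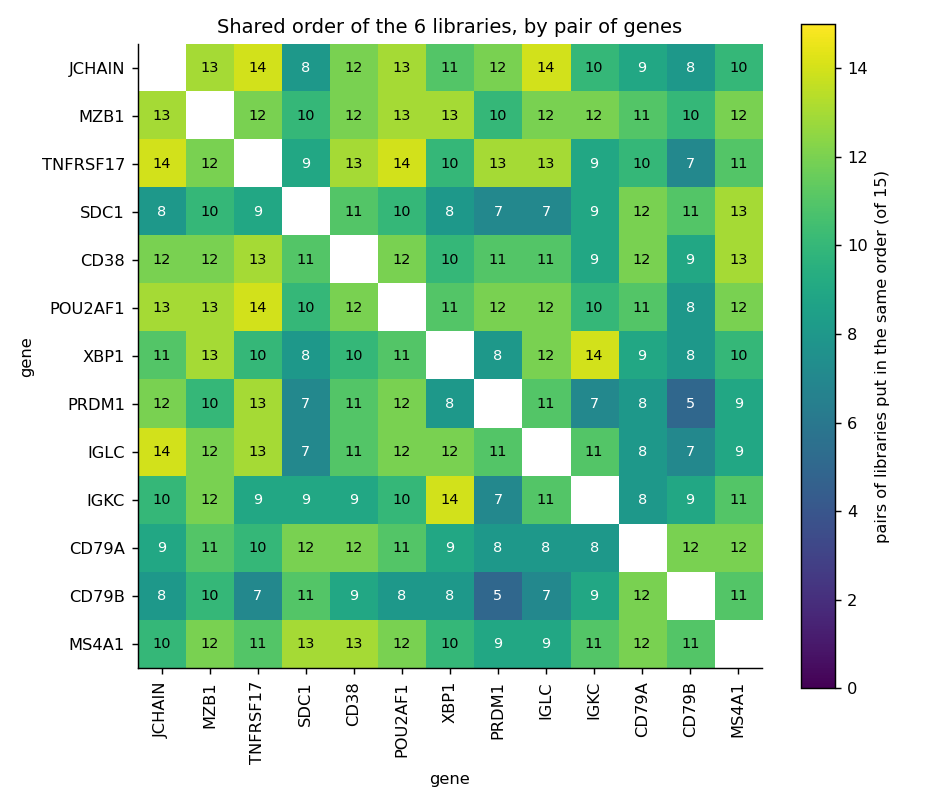
Number of the 15 pairs of libraries that the genes of a row and column put in the same order, as the shade and the printed number. JCHAIN and TNFRSF17 share 14 and JCHAIN and SDC1 share 8.

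Other cell types also varied among these libraries. The 12 monocyte marker rows summed to 3906.6, 1970.2 and 1700.7 FPKM in wild type replicates 1 to 3 and to 1821.3, 3043.6 and 1901.0 FPKM in leptin transgenic replicates 1 to 3. They were highest in wild type replicate 1 and leptin transgenic replicate 2, the libraries that between them held the lowest value of each of the 6 plasma cell genes, and lowest in wild type replicate 3. The median monocyte marker shared only 3 of the 15 pairs with JCHAIN. Their part in the order of the libraries was not tested. Summed ranges of wild type and leptin transgenic libraries overlapped for markers of B cells, T cells, NK cells, monocytes, dendritic cells, platelets and red cells, and 2 of those lists had a gene at 0 in some library. The 10 B cell markers summed to between 426.5 and 791.7 FPKM in wild type and between 621.7 and 771.5 FPKM in leptin transgenic libraries. That overlap rests on wild type replicate 1, which held the 426.5 FPKM: the other wild type libraries, at 791.7 and 791.5 FPKM, were above all 3 leptin transgenic ones. The median log2 fold change of these markers was 0.060 with all libraries (8 above 0 and 2 below), beside 0.059 over all genes. With TPM scaling it was -0.062 (4 above 0 and 6 below), beside -0.056 over all genes. With median-of-ratios scaling it was -0.00555 (4 above 0 and 6 below), beside 0.00199. It was -0.27 without wild type replicate 1 and 0.25 without wild type replicate 2. It was 0.0045 without leptin transgenic replicate 1 and -0.33 without both replicate 1 libraries, where the 6 plasma cell genes were also below 0.

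Levels were therefore also set against B cell markers, by subtracting the mean log2(FPKM + 1) of MS4A1, CD79A and CD79B in each library. That mean was 6.47 in wild type replicate 1 and between 7.16 and 7.46 in the other libraries. JCHAIN lay 1.72, 0.91 and 1.44 above it in wild type and 1.20, 0.63 and 1.52 above it in leptin transgenic libraries. The difference between the labels was -0.24 on the log2 scale, against an SD within groups of 0.43. Differences for the other 5 ran from -0.41 (TNFRSF17, SD 0.44) to -0.077 (MZB1, SD 0.34), and no gene of the 6 separated the labels. Except for SDC1, the highest value set against the markers was in wild type replicate 1, the library with the lowest marker mean. For CD38 it was -1.80 there and between -2.73 and -2.41 in the other libraries. These differences therefore depend on that library, and they were not computed without it.

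The genes with profiles most like each were listed by the root mean square distance between standardized profiles over the 6 libraries. For JCHAIN the nearest were CPSF7 at a distance of 0.0689, CHD7 at 0.0816, LTN1 at 0.0921 and MDN1 at 0.102, against a median of 1.02 over all genes tested. CPSF7 takes part in cleaving RNA 3′ ends, CHD7 remodels chromatin, LTN1 is a ubiquitin ligase of stalled ribosomes and MDN1 helps build the large ribosomal subunit. For TNFRSF17 the nearest were ANKRD17 (0.0777), DHX57 (0.0803), MACF1 (0.104) and MADD (0.105). XBP1 was nearest to LPXN (0.0645), MRPL38 (0.0953), PFKM (0.127) and MIGA2 (0.136). The nearest genes to PRDM1 were farther off, with ELF4 at 0.148, then PRRC1 (0.255), CHST7 (0.256) and GABPB2 (0.267). None of these 16 genes is a plasma cell gene of the lists used here. JCHAIN put all 15 pairs in the same order as 115 genes.

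Antibody light chains, the cargo of the secretory pathway, were among the most abundant RNAs. Rows named for immunoglobulin chains numbered 16, the lambda constant gene IGLC, the kappa constant gene IGKC, 10 lambda variable genes and 4 kappa variable genes. Heavy chains were not analysed here. IGLC (chromosome 14 from 52423078 to 52423532) was at 3477.7, 2996.8 and 5098.5 FPKM in wild type and at 3798.2, 1269.3 and 4455.5 FPKM in leptin transgenic libraries. It was the gene ranked 9 in the table by mean level, and leptin transgenic replicate 2 stood apart below the other 5 libraries. Its log2 fold change was -0.44 (SE 0.45, 95% interval -1.48 to 0.61, adjusted p = 0.993) and turned to 0.13 without that library. Without both replicate 1 libraries it was -0.72.

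IGKC (chromosome 3 from 59880798 to 59881322) was at 1150.1, 780.8 and 3546.1 FPKM in wild type and at 2544.7, 2358.6 and 1700.4 FPKM in leptin transgenic libraries. Wild type replicate 3 had the highest value and the other wild type libraries the lowest. The log2 fold change was 0.56 (SE 0.50, 95% interval -0.58 to 1.70, adjusted p = 0.993). Without wild type replicate 3 it was 1.19 (unadjusted p = 0.00183, adjusted p = 0.476), when 7.99% of all genes tested passed an unadjusted p under 0.05. Without wild type replicate 2 it was 0.10 (unadjusted p = 0.819), and without both replicate 1 libraries 0.27.

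IGLC followed JCHAIN more closely than IGKC did, with 14 against 10 of the 15 pairs in the same order, while IGKC shared 14 with XBP1. The lambda to kappa ratio, IGLC over IGKC, was 3.02, 3.84 and 1.44 in wild type libraries and 1.49, 0.538 and 2.62 in leptin transgenic ones. Leptin transgenic replicate 2 was the 1 library with more IGKC than IGLC. The variable genes did not show more kappa there: summed lambda over summed kappa variable FPKM was 10.6. That ratio was still the lowest, against between 45.7 and 59.4 in the other 5 libraries. The 4 kappa variable genes summed to far less than IGKC in every library, so the variable ratio rests on the few kappa rows present. Lambda variable genes summed to 419.6 FPKM in leptin transgenic replicate 2 and to between 828.9 and 1828.2 FPKM elsewhere, and kappa variable genes to 39.4 FPKM there and to between 14.8 and 33.2 FPKM elsewhere. Of the 10 lambda variable genes, 7 were lowest in that library. Both light chain constants together were 15.9, 12 and 18.2 times JCHAIN in wild type and 17.2, 16.2 and 15.1 times in leptin transgenic libraries, a narrower range than that of either chain.

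**Figure D4:**
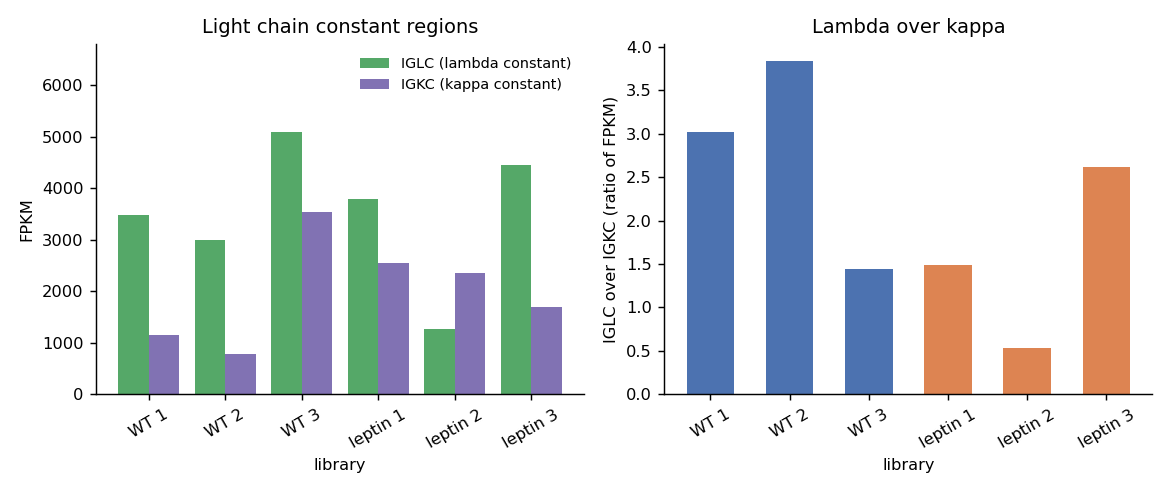
Left, FPKM (axis from 0) of the lambda and kappa constant genes in each library. Right, their ratio, which is below 1 only in leptin transgenic replicate 2 (0.538).

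Among the variable genes the highest were IGLV-8 (means 337.5 ± 134.9 and 368.8 ± 233.2 FPKM), IGLV-7 (425.2 ± 219.7 and 280.1 ± 180.0), IGLV-9 (235.8 ± 79.9 and 204.8 ± 130.9) and IGLV-10 (115.0 ± 28.7 and 105.0 ± 70.0), wild type first. Their log2 fold changes ran from -0.79 (IGLV-7) to -0.020 (IGLV-8), with SEs between 0.50 and 0.68. Of the 15 immunoglobulin genes tested, 11 had fitted values below 0 and 4 above, with a median of -0.22, beside 36.9% of all genes below 0. With TPM scaling 12 were below 0 (median -0.36), beside 62.5% of all genes. With median-of-ratios scaling 12 were below 0 (median -0.29), beside 49.6% of all genes. The median was -0.31 without both replicate 1 libraries, 0.13 without leptin transgenic replicate 2 and -0.50 without leptin transgenic replicate 3. At an unadjusted p under 0.05, 1 of the 15 passed, against 3.18% of all genes. That gene, IGLV-3, singled out after its values were seen, was at 95.7, 60.3 and 74.5 FPKM in wild type and 57.8, 49.6 and 46.6 FPKM in leptin transgenic libraries (log2 fold change -0.55, SE 0.20, unadjusted p = 0.0226, adjusted p = 0.993 in limma). Variable segments are near copies of each other, so reads may have been divided among them uncertainly.

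The secretory pathway was followed with 3 lists of ER genes: sensors and chaperones of the unfolded protein response, disulfide and prolyl isomerases, and proteins of translocation, signal cleavage and vesicle transport. Leaving out XBP1, 66 of their genes were tested. Fitted values were above 0 for 45 of them and below 0 for 21, with a median of 0.051 beside 0.059 over all genes. This split follows the scaling: 23 were above 0 and 43 below with TPM scaling (median -0.070), and 30 above and 36 below with median-of-ratios scaling (median -0.0076). Without both replicate 1 libraries 26 were above 0 and 40 below. With 1 library left out, the median ran from 0.011 without wild type replicate 1 (35 above 0 and 31 below) to 0.16 without wild type replicate 3 (53 above and 13 below). At an unadjusted p under 0.05, 2 genes were lower and 0 higher, 0 passed after adjustment, and 3 had groups without overlap. The 2 are 3.03% and the 3 are 4.55% of the 66, against 3.18% and 7.63% of all genes in either direction.

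Both lower genes act in the disposal of misfolded ER proteins. SEL1L, a part of the HRD1 ubiquitin ligase complex that was named by identifier, was at 7.15, 7.40 and 8.62 FPKM in wild type and at 6.08, 5.07 and 5.88 FPKM in leptin transgenic libraries. The groups did not overlap, with a log2 fold change of -0.39 (SE 0.15, unadjusted p = 0.0303, adjusted p = 0.993 in limma). EDEM3, which trims mannose from such proteins, was at 5.96, 4.37 and 5.78 FPKM against 4.35, 2.81 and 4.0 FPKM, a log2 fold change of -0.44 (SE 0.19, unadjusted p = 0.0467, adjusted p = 0.993). With 1 library left out, the SEL1L value ran from -0.43 to -0.31 and passed the unadjusted threshold only without wild type replicate 1, with p between 0.051 and 0.0913 when any other library was left out and 0.0642 with the replicate block. The EDEM3 value ran from -0.56 to -0.29 and passed only without wild type replicate 2 or leptin transgenic replicate 1, with p between 0.0653 and 0.143 when any other was left out. Without both replicate 1 libraries the values were -0.48 (SEL1L, unadjusted p = 0.0476 in limma) and -0.47 (EDEM3, 0.0919). With TPM scaling they were -0.54 (unadjusted p = 0.011) and -0.60 (0.0235), and with median-of-ratios scaling -0.44 (0.00337) and -0.49 (0.0218). EDEM3 did not pass without variance moderation (unadjusted p = 0.0839) or without a filter on low values (0.0507). The adjusted p was 0.981 or more with both scalings, the replicate block, no variance moderation or no filter, and without both replicate 1 libraries. With 1 library left out, the adjusted p in limma was 0.634 or more for SEL1L and 0.637 or more for EDEM3. The prolyl isomerase FKBP2 was the other gene without overlap, at 60.6, 58.1 and 64.0 FPKM in wild type and 76.2, 70.9 and 74.9 FPKM in leptin transgenic libraries (log2 fold change 0.28, SE 0.13, unadjusted p = 0.0709). It was 0.15 (unadjusted p = 0.322) with TPM scaling and 0.25 without both replicate 1 libraries. The unadjusted p of FKBP2 was 0.0053 without variance moderation (adjusted p = 0.988) and 0.153 with the replicate block.

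The other genes at the ends of each list had smaller or less certain values. In the first list, the stress sensor ATF6 was at -0.31, while DERL1 and EDEM2, which act in protein disposal, and the sensor ATF6B were at 0.20, 0.26 and 0.30. In the second, the disulfide oxidases ERO1A and ERO1B were at -0.057 and -0.044 and TXNDC11 at -0.040, and PRDX4 and the disulfide isomerase PDIA5 were at 0.13 and 0.14. In the list of translocation and transport, the coat proteins SEC13 and SEC24D were at -0.22 and -0.14 and TRAM2 at -0.21, against 0.27 for the signal peptidase subunit SPCS3, 0.28 for the signal recognition particle protein SRP19 and 0.31 for SEC61B of the translocon. The unadjusted p of none of these was under 0.05.

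Across libraries, 25 of the 66 ER genes (37.9%) shared 12 or more pairs with JCHAIN, against 23.5% of all genes tested, and their median was 11 pairs. Of 12 proliferation genes tested, such as MKI67 and TOP2A, all 12 shared 12 or more, with a median of 13. Proliferation genes summed to 186.2, 195.0 and 298.8 FPKM in wild type and to 256.8, 214.2 and 281.9 FPKM in leptin transgenic libraries. The trait was not particular to these lists. Of the NK cell marker rows 7 of 11 (63.6%) and of the T cell markers 5 of 12 (41.7%) shared 12 or more pairs with JCHAIN, and none of the 10 B cell markers or the 12 monocyte marker rows tested did. The 11 NK rows are 9 genes, since GZMA and NCR1 have 2 rows each, and the 12 monocyte rows are 11 genes, since CD68 has 2. These shares were not tested, because genes of a library are not independent.

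**Figure D5:**
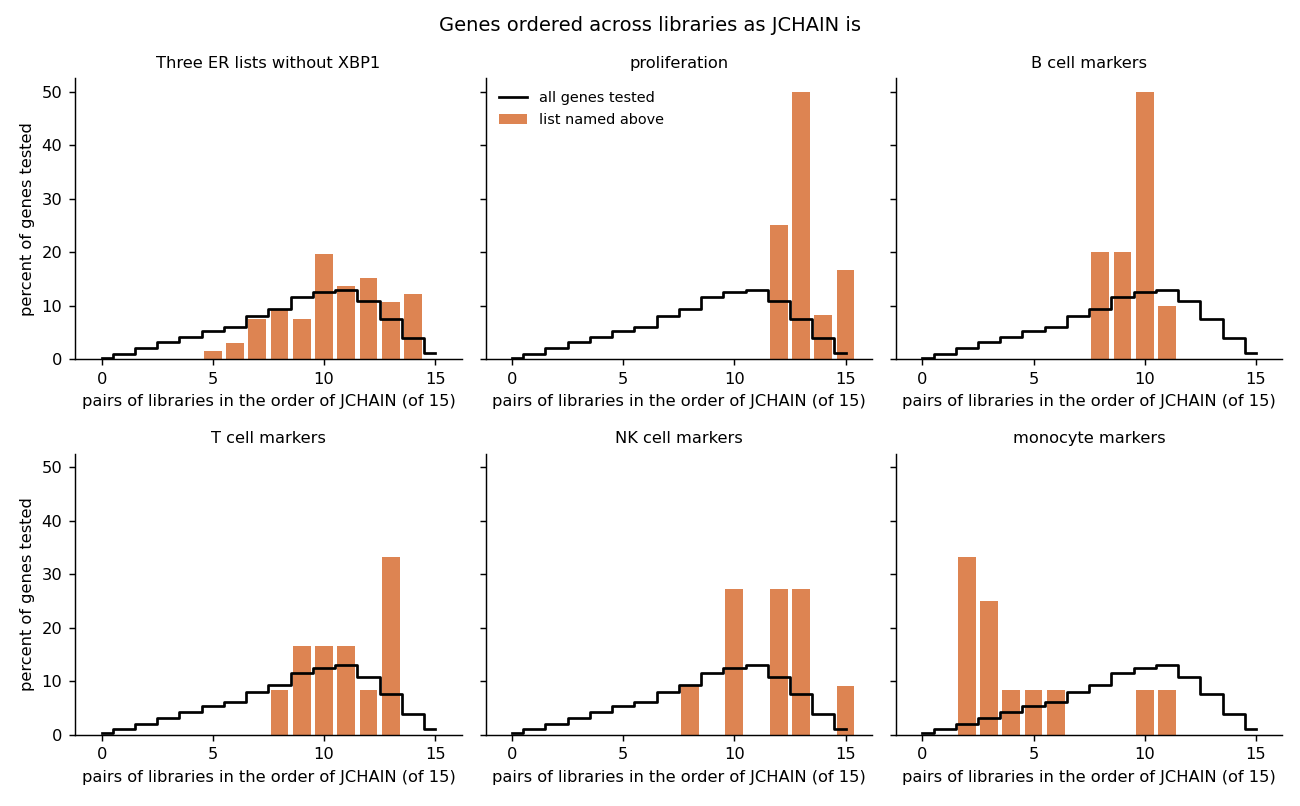
Percent of genes tested (vertical axis) by the number of the 15 pairs of libraries put in the same order as by JCHAIN (horizontal axis), for the 3 ER lists together, proliferation genes and markers of B cells, T cells, NK cells and monocytes (bars), with all genes tested as the black line. All 12 proliferation genes and 7 of 11 NK cell marker rows stand at 12 pairs or more, and no B cell or monocyte marker does.

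Genes that guide B cells to the plasma cell stage and keep plasma cells alive gave no call. Of 14 transcription factors tested, among them BCL6 and BACH2, which hold back the switch, and IKZF3 (Aiolos), 10 had fitted values below 0 and 4 above, with a median of -0.14, beside 36.9% of all genes below 0. The median was -0.012 without leptin transgenic replicate 2 and -0.21 without both replicate 1 libraries (11 below 0, beside 56.8% of all genes). With TPM scaling it was -0.27 (13 below 0, beside 62.5% of all genes). With median-of-ratios scaling it was -0.20 (12 below 0, beside 49.6%). None passed an unadjusted p under 0.05 in limma and no groups were without overlap, against 3.18% and 7.63% of all genes. The 18 rows of survival and homing receptors and ligands tested (17 genes, since IL6R has 2 rows, both below 0), among them TNFSF13B (BAFF), the receptor of IL-6 and the homing receptors CXCR4 and CCR10, had 10 above 0 and 8 below, with a median of 0.044, beside 63.1% of all genes above 0. The median ranged from -0.063 to 0.16 with 1 library left out and was -0.071 with TPM scaling (7 above 0 and 11 below) and 0.041 without both replicate 1 libraries. Again 0 passed an unadjusted p under 0.05, against 3.18% of all genes. TNFRSF17 and POU2AF1 stand in these lists too, as do PRDM1 and XBP1.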

How the data were processed

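PBMC RNA-seq libraries of 6 pigs were grouped by their labels. Per the paper's methods, paired-end reads (101 bp) were aligned by the authors to the transcriptome of Ensembl version 75 with Bowtie, and RSEM gave the expression values. The submitters' processing notes name FastQC, STAR 2.5, Cuffnorm and DESeq 1.22.1, so the 2 accounts differ. The authors deposited 1 FPKM value per gene and library, and their own fold change, p-value and FDR columns were not used. No column of per-sample values was unmatched.

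Those 10735 genes that reached 1 FPKM in 3 libraries or more were compared on log2(FPKM + 1), which understates changes of low genes, with limma 3.58.1 in R 4.3.3 (two-sided, Benjamini-Hochberg over all genes). Exact permutation tests used SciPy 1.17.1 under Python 3.11.15. In simulated data of this comparison over 10735 genes, 200 were given a log2 fold change of 2. The fit recovered 192 of them with 13 false calls. Fitted values of the plasma cell genes found by symbol ran only from -0.285 to 0.0451. No smaller change was simulated, so the recovery does not show how often changes of that size would be found. A count model could not be run on FPKM values.

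Members and gene lists were chosen with earlier results of these data known. Named genes were the members, regulators or receptors with an unadjusted p under 0.05 or no overlap, the 3 highest and lowest of each ER list, the 4 profiles nearest to JCHAIN, TNFRSF17, XBP1 and PRDM1, 3 B cell markers, LEP and the 6 highest immunoglobulin genes. Some further genes are named as examples of their lists, and IGLV-3, SEL1L, EDEM3 and FKBP2 also for their values. Of 4000 genes without a symbol, 1504 were named through the Sscrofa11.1 gene table, whose symbols equalled the deposited ones for 5604 of 5913 genes with both. Promoter motifs and sequences were not used here, and 1 further item is not reported here. The labels do not say more on replicates than their numbers, and p-values measure the spread between these libraries. Alternatives were other pseudocounts, filters, scalings and variance moderation, a replicate block, each library left out, and both replicate 1 libraries left out.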

Additional observations from a re-analysis of the deposited data

How the results depend on the processing

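No alternative brought any of the 6 genes to an adjusted p under 0.05. Over the 15 alternatives (14 for SDC1, which a filter of 1 FPKM in every library removed), CD38 stayed below 0 in all. With TPM scaling the median of all genes was -0.056, and MZB1 was -0.083, POU2AF1 -0.12 and XBP1 -0.038. With median-of-ratios scaling MZB1 was -0.020 and POU2AF1 -0.053. SDC1 was 0.017 with log2(FPKM + 0.1). Without both replicate 1 libraries MZB1 was -0.27, POU2AF1 -0.26 and XBP1 -0.044.

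With 1 library left out at a time, the log2 fold change ranged from -0.29 to 0.14 for JCHAIN, from -0.15 to 0.35 for MZB1, from -0.46 to 0.050 for TNFRSF17, from -0.40 to 0.17 for SDC1, from -0.28 to -0.048 for CD38, from -0.22 to 0.17 for POU2AF1, from -0.035 to 0.28 for XBP1, from -0.42 to -0.052 for PRDM1, from -0.78 to 0.13 for IGLC and from 0.10 to 1.19 for IGKC. The median of the immunoglobulin genes ranged from -0.50 to 0.13, and that of the disulfide list from -0.011 to 0.21, the latter without wild type replicate 3. The cause was not tested for any of these.

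Over all genes, 1 was higher and 0 lower at an adjusted p under 0.05. The higher count was 0 with a filter in every library, 0 without moderation, 2 with the replicate block and 0 without both replicate 1 libraries, and both counts ranged from 0 to 2 with 1 library left out. At an unadjusted p under 0.05, 213 were higher and 128 lower. With TPM scaling these were 80 and 297, with median-of-ratios scaling 250 were lower, and without both replicate 1 libraries 104 were higher. With 1 library left out, 135 to 608 were higher and 95 to 238 lower. Replicate numbers did not pair the libraries (correlations of deviations -0.28, 0.14 and -0.0073, and 1 of 6 libraries was closest to its own number), and the replicate block left JCHAIN at -0.12 (adjusted p = 0.999).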

Other observations

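Among genes under 3 FPKM in a pair of libraries, the number whose log2 ratio of FPKM fell in the same window of 0.001 was at most 43, 35 and 24 in the 3 pairs of leptin transgenic libraries. It was between 7 and 13 in each of the other 12 pairs. SDC1 is the 1 plasma cell gene found by symbol in that range of levels.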
